A study of Mus musculus with 12 samples.

Results

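The genes described here are 38 genes that mark the maternal decidua, the trophoblast of the placenta, or the yolk sac and fetal blood, followed through RNA of pregnant mouse uterus. They were taken by gene symbol from a named list, without use of their measured values, and all 38 were among the 24964 genes of the count table. The list held 6 decidual genes, 26 trophoblast genes and 6 genes of the yolk sac or of fetal blood. Of the 38 genes, 31 had at least 1 read count in some library, and 7 had none in any.

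RNA of uterine tissue collected at 13.5 days post coitum (dpc) was sequenced in 12 libraries, 4 from each of 3 groups. PGR-A:OE mice carried Myh11Cre and LSLPGRA/+, an allele that expresses progesterone receptor isoform A where Cre is active. PGR-B:OE mice carried Myh11Cre and LSLPGRB/+, the matching allele for isoform B. The control mice carried Myh11Cre without either allele, so all 12 libraries share the Cre driver. The driver uses the promoter of Myh11, smooth muscle myosin heavy chain, so Cre is directed to smooth muscle cells. The labels do not say whether decidua, placenta or fetal membranes were taken off before RNA extraction, nor whether the 4 libraries of a group came from separate mice. The p-values below therefore measure the spread between these libraries, part of which may be technical.

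Decidua is uterine stroma that has differentiated around an implanted embryo. Mouse decidual cells secrete proteins of an expanded prolactin family, of which Prl8a2, decidual prolactin-related protein, is the best known. Trophoblast is the fetal cell lineage of the placenta. Its giant cells and spongiotrophoblast cells secrete other members of the same family, including the placental lactogens Prl3d1 and Prl3b1. The visceral endoderm of the yolk sac secretes serum proteins such as alpha-fetoprotein (Afp), and the first red cells made in the yolk sac carry embryonic globins.

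All 11 prolactin family genes of the list lie on mouse chromosome 13. Prl8a2 is at chr13:27345673-27354216 and Prl3c1 at chr13:27196659-27203749. The trophoblast genes Prl2a1, at chr13:27801654-27808729, and Prl7a1, at chr13:27633366-27642493, lie in the same cluster, and Tpbpa, a spongiotrophoblast gene, is at chr13:60938492-60941984 of the same chromosome. Coordinates are those of GRCm38. RefSeq promoter windows of GRCm38.p6, from 250 bases before to 50 bases after a gene's start, were found for 27 of the 38 genes. A promoter is shown for 4 genes that had their highest counts in PGR-B:OE replicate 3 or Myh11Cre replicate 4, the libraries that the values below turn on. Capitals mark matches on either strand to AGATAA, the letters bound by GATA factors, to TGANTCA, the letters bound by AP-1, or to the run TATATA, and matches that overlap run together. Prl2a1 and Prl7a1 were highest in PGR-B:OE replicate 3, and Tpbpa and Prl3c1 in Myh11Cre replicate 4. The windows are chr13:27801405-27801704 on the plus strand for Prl2a1, chr13:27642444-27642743 on the minus strand for Prl7a1, chr13:60941887-60942186 on the minus strand for Tpbpa and chr13:27196410-27196709 on the plus strand for Prl3c1.
Prl2a1: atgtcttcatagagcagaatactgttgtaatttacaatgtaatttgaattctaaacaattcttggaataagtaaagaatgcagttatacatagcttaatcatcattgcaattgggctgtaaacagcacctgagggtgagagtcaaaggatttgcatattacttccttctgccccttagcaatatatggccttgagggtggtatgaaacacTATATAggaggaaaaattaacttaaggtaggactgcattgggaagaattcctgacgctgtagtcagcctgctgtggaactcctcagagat
Prl7a1: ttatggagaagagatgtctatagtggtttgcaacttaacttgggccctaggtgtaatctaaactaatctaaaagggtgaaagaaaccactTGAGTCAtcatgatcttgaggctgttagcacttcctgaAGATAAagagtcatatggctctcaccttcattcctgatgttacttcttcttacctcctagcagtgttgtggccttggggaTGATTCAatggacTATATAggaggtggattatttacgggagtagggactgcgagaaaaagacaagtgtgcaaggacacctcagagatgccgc
Tpbpa: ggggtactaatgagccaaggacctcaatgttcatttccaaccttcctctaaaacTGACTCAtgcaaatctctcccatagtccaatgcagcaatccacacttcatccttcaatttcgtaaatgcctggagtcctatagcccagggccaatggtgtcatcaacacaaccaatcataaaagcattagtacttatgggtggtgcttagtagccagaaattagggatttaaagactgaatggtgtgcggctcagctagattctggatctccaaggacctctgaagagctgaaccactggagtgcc
Prl3c1: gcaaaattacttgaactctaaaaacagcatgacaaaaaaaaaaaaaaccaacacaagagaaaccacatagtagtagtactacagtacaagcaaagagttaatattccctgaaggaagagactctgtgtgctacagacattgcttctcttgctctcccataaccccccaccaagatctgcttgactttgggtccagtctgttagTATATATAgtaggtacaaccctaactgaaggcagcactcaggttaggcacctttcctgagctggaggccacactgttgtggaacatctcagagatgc

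The run TATATA was in 8 of the 9 windows of the 8 prolactin genes that had one, against 5.67% of 32851 mouse promoter windows of this length. This motif was picked after these sequences had been read, so its share is a description. The other window, at a second start of Prl3c1, did not hold it. AGATAA was in 3 of the 9 windows, against 11.2% of all windows. TGANTCA was in 3 of 9, against 7.81%. A match is a run of letters and says nothing of binding.

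Depth was nearly even, with 31872534 to 33078483 counts per library. Levels are in CPM, read counts set to a common library size with edgeR's TMM factors, and 3 counts, the most that a count of 0 allows, came to 0.0874 to 0.0967 CPM by library, for counting error only. Pgr, the targeted gene, averaged 199.7 ± 38.5 CPM in PGR-A:OE, 223.0 ± 26.5 CPM in PGR-B:OE and 121.3 ± 16.5 CPM in Myh11Cre libraries (SD, n = 4 each). These counts separate neither the isoforms nor transgene from endogenous transcripts. The 16 smooth muscle markers were all detected, with sums of 23506 to 32834 CPM in PGR-A:OE, 17105 to 22933 CPM in PGR-B:OE and 17715 to 23155 CPM in Myh11Cre libraries. PGR-A:OE replicate 4, the highest of these, also stands apart from the other libraries in the member genes described below.

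**Figure D1:**
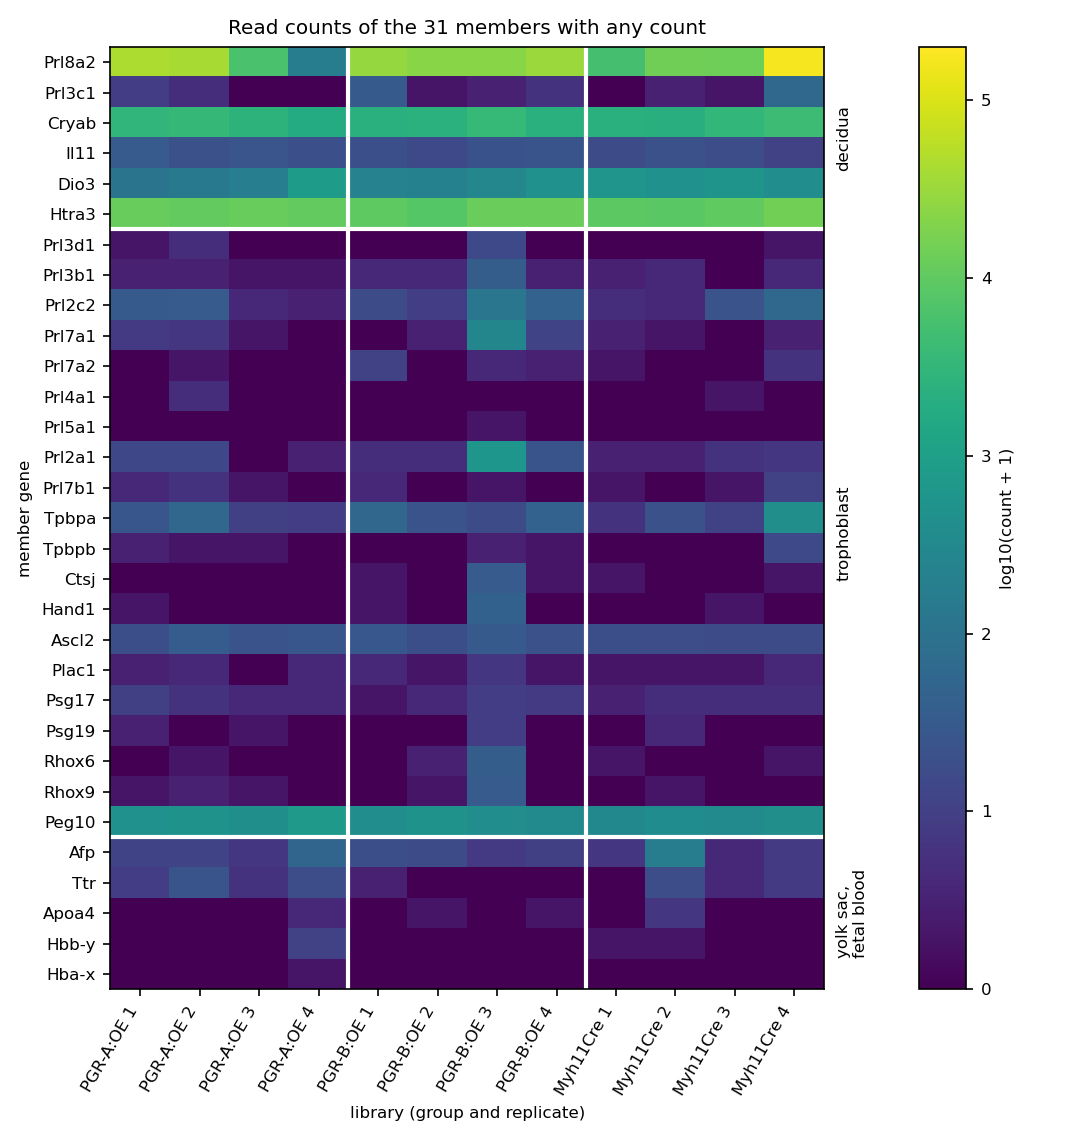
Read counts of the 31 genes with at least 1 count, as log10(count + 1), with 1 row per gene and 1 column per library; white lines divide the 3 groups and the decidual, trophoblast and yolk sac or fetal blood genes. Prl8a2 had 171 counts in PGR-A:OE replicate 4 and 169719 in Myh11Cre replicate 4, and a block of trophoblast genes was high in PGR-B:OE replicate 3.

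The decidual genes included the most abundant gene of the list, which also had the widest range in CPM. Prl8a2 had 1278, 1230, 192 and 5.02 CPM in PGR-A:OE replicates 1 to 4, 873, 730, 744 and 985 CPM in PGR-B:OE replicates 1 to 4, and 174, 450, 430 and 5054 CPM in Myh11Cre replicates 1 to 4. The highest library, Myh11Cre replicate 4, was 1006 times the lowest, PGR-A:OE replicate 4, and the 4 PGR-B:OE libraries lay close together inside the range of both other groups. In bulk RNA, fewer decidual cells and less Prl8a2 RNA per cell cannot be told apart. Per kilobase of gene model, Prl8a2 averaged 1079 CPM per kb over the 12 libraries, against 96.6 for Htra3 and 70.2 for Cryab, the next decidual genes on that scale.

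Prl3c1, another prolactin-family hormone of the decidua, had 8, 4, 0 and 0 counts in PGR-A:OE replicates 1 to 4, 30, 1, 2 and 5 in PGR-B:OE replicates 1 to 4, and 0, 2, 1 and 59 in Myh11Cre replicates 1 to 4. Its highest library was the same as that of Prl8a2, and in PGR-A:OE replicate 4, where Prl8a2 was lowest, it had no count. It was too low to enter the test.

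The other 4 decidual genes spread far less. Cryab, a small heat shock chaperone that muscle also makes, had 87.7, 103.3, 85.7 and 54.1 CPM in PGR-A:OE replicates 1 to 4, 67.4, 76.3, 116.3 and 70.7 CPM in PGR-B:OE replicates 1 to 4, and 74.0, 70.7, 100.8 and 125.4 CPM in Myh11Cre replicates 1 to 4. Htra3, a secreted serine protease, had 341, 327, 373 and 318 CPM in PGR-A:OE replicates 1 to 4, 284, 261, 392 and 375 CPM in PGR-B:OE replicates 1 to 4, and 301, 283, 313 and 433 CPM in Myh11Cre replicates 1 to 4. The highest library of Cryab was 2.32 times its lowest, and that of Htra3 was 1.66 times its lowest. Il11, a cytokine needed for decidualization, stayed between 0.298 and 0.961 CPM in all 12 libraries. Reads of Cryab are uncertain, because 17.1% of its 75-base windows also occur in another gene model and its exons overlap those of Hspb2. Without Prl8a2, the summed level of the decidual genes ran from 397 to 466 CPM in PGR-A:OE, 344 to 518 CPM in PGR-B:OE and 370 to 572 CPM in Myh11Cre libraries.

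Dio3, the deiodinase that inactivates thyroid hormone, had another order. It had 3.17, 4.06, 6.04 and 24.8 CPM in PGR-A:OE replicates 1 to 4, 6.64, 6.70, 9.18 and 14.4 CPM in PGR-B:OE replicates 1 to 4, and 18.6, 15.0, 17.7 and 11.8 CPM in Myh11Cre replicates 1 to 4. PGR-A:OE replicate 4, the library with the least Prl8a2, had the most Dio3, while the other 3 PGR-A:OE libraries were below all 4 Myh11Cre libraries.

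Most trophoblast genes had few or no counts in most libraries. Of the 9 trophoblast prolactin genes of the list, 5 with at least 10 counts (Prl2a1, Prl7a1, Prl2c2, Prl3b1 and Prl3d1) were highest in PGR-B:OE replicate 3. The other 4 had 0 to 3 counts there, among them Prl5a1 with its only count. Prl2a1 had 13, 13, 0 and 2 counts in PGR-A:OE replicates 1 to 4, 4, 4, 615 and 23 in PGR-B:OE replicates 1 to 4, and 2, 2, 5 and 6 in Myh11Cre replicates 1 to 4. Prl7a1 had 7, 6, 1 and 0 counts in PGR-A:OE replicates 1 to 4, 0, 2, 264 and 11 in PGR-B:OE replicates 1 to 4, and 2, 1, 0 and 2 in Myh11Cre replicates 1 to 4. PGR-B:OE replicate 3 held 89.3% of all Prl2a1 counts and 89.2% of all Prl7a1 counts of the 12 libraries, at 19.8 and 8.51 CPM. Neither gene shares a 75-base window with another gene model.

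The placental lactogens and the trophoblast transcription factor Hand1 were high in the same library. Prl3b1, placental lactogen II, had 35 counts in PGR-B:OE replicate 3 and 0 to 3 in each other library, and Prl3d1, placental lactogen I, had 14 there and 0 to 4 elsewhere, with 37.8% of its windows shared with other gene models. Hand1, needed for giant cell formation, had 44 counts there and 0 or 1 elsewhere. Rhox6 and Rhox9, placental homeobox genes, had 35 and 32 counts there and 0 to 2 elsewhere. Of the 75-base windows of Rhox6, 11.6% also occur in Rhox9 and in no other gene model, so the counts of these genes are not fully separate. Ctsj, a placental cathepsin, had 33 counts there and 0 or 1 elsewhere, and Psg19, a pregnancy-specific glycoprotein gene, had 8 there and 0 to 3 elsewhere. Proliferin Prl2c2, an angiogenic hormone of giant cells, had 121 counts there and 2 to 62 elsewhere, but 80.1% of its windows also occur in another gene, most of them in Prl2c3, so its reads are uncertain. Plac1 reached 6 counts there and 0 to 3 elsewhere, which does not stand apart at this depth.

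A second set of trophoblast genes was high in Myh11Cre replicate 4 instead. Tpbpa, trophoblast-specific protein alpha of the spongiotrophoblast, had 25, 54, 9 and 8 counts in PGR-A:OE replicates 1 to 4, 54, 22, 16 and 46 in PGR-B:OE replicates 1 to 4, and 5, 20, 10 and 414 in Myh11Cre replicates 1 to 4. Myh11Cre replicate 4, at 12.3 CPM, thus held 60.6% of all Tpbpa counts, and PGR-B:OE replicate 3 was unremarkable for it at 0.516 CPM. Its relative Tpbpb had 14 counts in Myh11Cre replicate 4 and 0 to 2 elsewhere, and Prl7b1 had 10 there and 0 to 5 elsewhere. Over the 28 genes with at least 10 counts and a single highest library, that library was PGR-B:OE replicate 3 for 11 genes, all of them trophoblast genes, and Myh11Cre replicate 4 for 7 genes, of which 4 were decidual and 3 were trophoblast genes. The plot shows part of both sets, and Prl3d1, Psg19, Plac1, Cryab and Htra3 are not drawn.

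**Figure D2:**
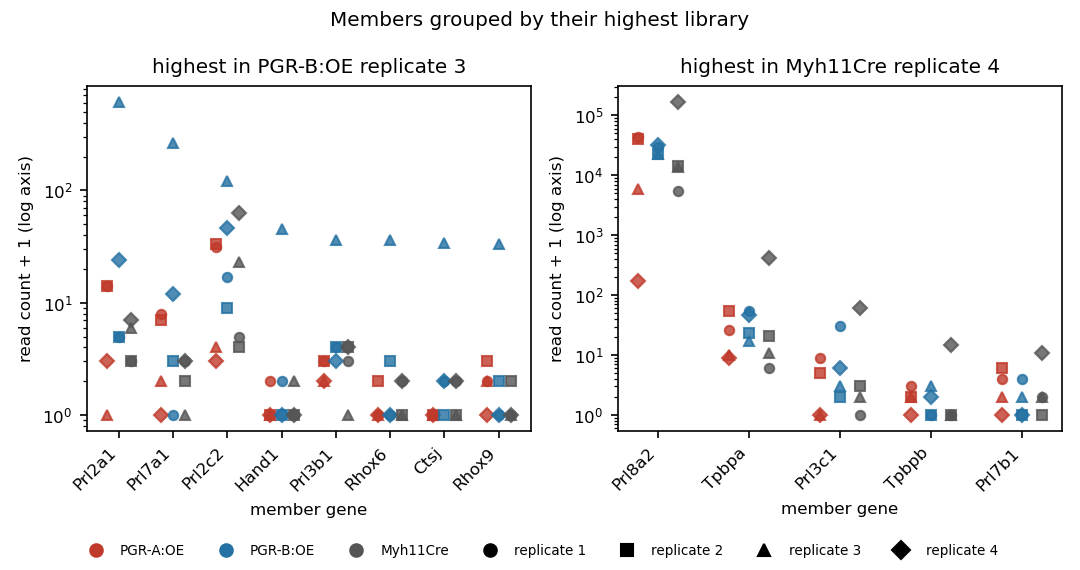
Read count plus 1 on a log axis for 8 trophoblast genes that were highest in PGR-B:OE replicate 3 (left) and for 5 genes that were highest in Myh11Cre replicate 4 (right); each point is a library, colour gives the group and shape the replicate. Hand1, Rhox6, Ctsj and Rhox9 had 32 to 44 counts in PGR-B:OE replicate 3 and 0 to 2 in each other library.

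Prl7a2, a further placental prolactin, had its highest count, 10, in PGR-B:OE replicate 1. Prl4a1 had 5 counts and Prl5a1 had 1 count over all 12 libraries. No count was seen in any library for Gcm1, the transcription factor of labyrinth syncytiotrophoblast, for the cathepsins Ctsq and Ctsm, or for Psg18, Psg21 and Psg23. Of the 75-base windows of Ctsm, Psg21 and Psg23, 20.8%, 27.8% and 23.0% also occur in other gene models, so their zeros are uncertain. Psg17 had 1 to 9 counts in every library.

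Peg10 and Ascl2 were present in every library at similar levels. Peg10, an imprinted gene derived from a retrotransposon and needed for placenta formation, had 13.7, 15.6, 13.8 and 20.3 CPM in PGR-A:OE replicates 1 to 4, 11.7, 16.1, 12.5 and 10.0 CPM in PGR-B:OE replicates 1 to 4, and 9.54, 11.8, 10.6 and 12.6 CPM in Myh11Cre replicates 1 to 4. The PGR-A:OE libraries were all above the Myh11Cre libraries, while the PGR-B:OE libraries overlapped both. Ascl2, a transcription factor of spongiotrophoblast precursors, had 18 to 34 counts in PGR-A:OE, 18 to 30 in PGR-B:OE and 15 to 18 in Myh11Cre libraries. Neither was highest in PGR-B:OE replicate 3 or Myh11Cre replicate 4. All listed trophoblast genes together summed to 53.4 CPM in PGR-B:OE replicate 3 and to 10.8 to 28.7 CPM in the other 11 libraries. Without Peg10, Ascl2 and Tpbpa, the sums were 39.4 CPM there and 0.323 to 3.34 CPM in the other 11 libraries. None of the genes left out was highest in PGR-B:OE replicate 3, so leaving them out widened the contrast by choice.

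Among the genes of the yolk sac and fetal blood, Afp was again high in a single library, but in a different one. Afp had 11, 11, 6 and 52 counts in PGR-A:OE replicates 1 to 4, 18, 15, 7 and 9 in PGR-B:OE replicates 1 to 4, and 6, 164, 3 and 7 in Myh11Cre replicates 1 to 4. It thus reached 5.21 CPM in Myh11Cre replicate 2 and 1.53 CPM in PGR-A:OE replicate 4, and stayed at or below 0.531 CPM in the other 10 libraries. Ttr, transthyretin, which carries thyroid hormone, had 8, 23, 5 and 17 counts in PGR-A:OE replicates 1 to 4, 2, 0, 0 and 0 in PGR-B:OE replicates 1 to 4, and 0, 17, 3 and 7 in Myh11Cre replicates 1 to 4. Apoa4, an apolipoprotein, had 6 counts in Myh11Cre replicate 2, 3 in PGR-A:OE replicate 4 and at most 1 elsewhere, and 56.1% of its windows occur in other gene models.

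The embryonic beta-like globin Hbb-y had 10 counts in PGR-A:OE replicate 4, 1 each in Myh11Cre replicates 1 and 2, and 0 in the other 9 libraries. Hba-x, the embryonic alpha-like globin, had 1 count, also in PGR-A:OE replicate 4, and Hbb-bh1 had none. These zeros cannot be read as an absence of fetal red cells. The 7 adult or beta-h2 globin genes of the table were listed at 0 in all 12 libraries, although Alas2, the heme synthesis enzyme of red cell precursors, ran from 5.99 to 31.96 CPM and was highest in PGR-A:OE replicate 4. Whether globin reads were removed is not given in the sources used here.

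**Figure D3:**
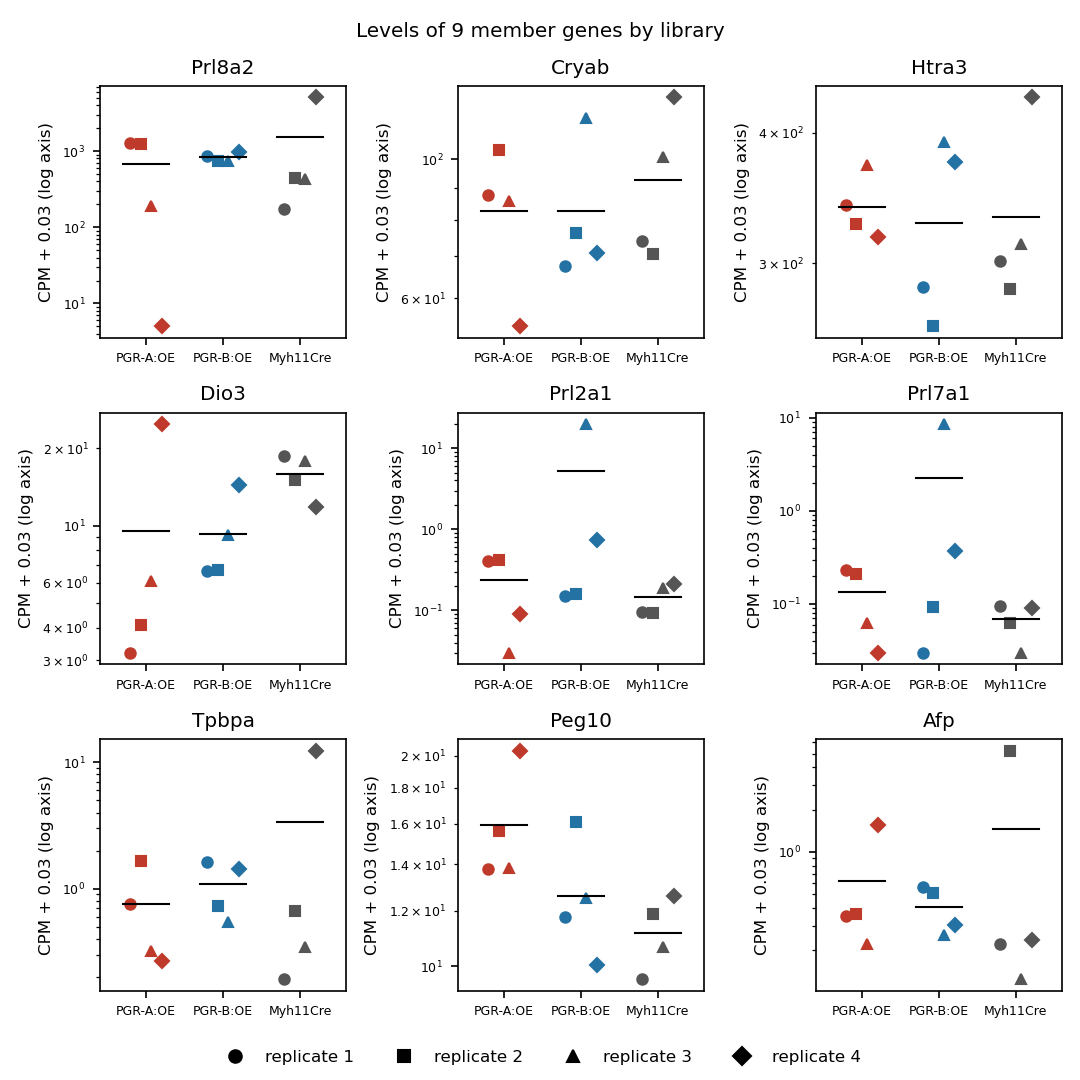
Levels of the 9 genes with a mean of at least 1 CPM or at least 5 CPM in a library, as CPM + 0.03 on a log axis whose range differs by panel; points are the 4 libraries of each group, shapes the replicates and black lines the group means. Single libraries lie far from the rest of their group for Prl8a2, Prl2a1, Prl7a1, Tpbpa and Afp, for which the highest libraries are at 5054, 19.8, 8.51, 12.3 and 5.21 CPM.

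The comparison of PGR-A:OE with Myh11Cre libraries asks which genes differ with isoform A in smooth muscle. None of the 11 listed genes with enough counts to be tested (5 decidual, 5 trophoblast and 1 yolk sac gene) passed edgeR's quasi-likelihood test at an adjusted p of 0.05, against 0.655% of the 15561 genes in the fit. Peg10 was the 1 gene of the 11 with an unadjusted p under 0.05, against 2400 of the 15561. DESeq2 and limma voom called 0 of the 11, and DESeq2 left 4 of the 11 without an adjusted p. They had 1 and 2 of the 11 at an unadjusted p under 0.05, against 2521 and 2324 of all genes. Peg10 averaged 15.9 ± 3.09 CPM in PGR-A:OE and 11.1 ± 1.34 CPM in Myh11Cre libraries (SD, n = 4 each), a log2 change of 0.51 (SE 0.16, edgeR adjusted p = 0.173). It was the only 1 of the 11 whose groups did not overlap, against 10.6% of all genes tested. The median log2 change was -0.17 over the 11 genes and 0.00051 over all genes tested.

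The large differences in mean were not beyond the spread between libraries. Prl8a2 averaged 676 ± 672 CPM in PGR-A:OE and 1527 ± 2355 CPM in Myh11Cre libraries, a log2 change of -1.17 (SE 1.20, edgeR adjusted p = 0.676). Without Myh11Cre replicate 4 its log2 change was 0.95, the opposite sign, again short of the threshold. Tpbpa behaved alike in this respect, with a log2 change of -2.22 (SE 1.14, edgeR adjusted p = 0.369) that became 0.95 without that library. Afp had a log2 change of -1.25 (SE 1.06, edgeR adjusted p = 0.604), and of 1.82 without Myh11Cre replicate 2.

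Dio3 was the only tested gene of the list whose call depended on a library. It averaged 9.51 ± 10.2 CPM in PGR-A:OE and 15.8 ± 3.06 CPM in Myh11Cre libraries (SD, n = 4 each), a log2 change of -0.73 (SE 0.54, edgeR adjusted p = 0.547). Without PGR-A:OE replicate 4, Dio3 fell by 1.84 on the log2 scale (edgeR adjusted p = 0.0262), and it was then the 1 called gene of the 11, against 0.594% of the 15657 genes tested in that fit. Leaving out any other library of this comparison gave no call. PGR-A:OE replicate 4 also had the least Prl8a2, the most Afp of its group and the highest sum of smooth muscle markers. Among 12 epithelial markers, Ltf, lactoferrin, had 1373 CPM there and 53.7 to 321 CPM in the other 11 libraries. Epcam, at 202 CPM, was at its lowest of the 12 libraries. Outside the rule for naming genes, and chosen after the values were seen, Cdh1, at 187 CPM, was also at its lowest. Foxa2, chosen likewise, was at its highest, at 5.49 CPM against 0.387 to 1.05 CPM elsewhere. Krt19, at 174 CPM, was at the highest of its group. It was below PGR-B:OE replicate 3, at 246 CPM, and Myh11Cre replicates 1 and 2, at 222 and 221 CPM. Krt8 and Krt18, at 263 and 262 CPM, did not stand apart. The other libraries ran from 200 to 489 CPM for Krt8 and from 236 to 405 CPM for Krt18. The part of these values in the Dio3 result was not tested.

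**Figure D4:**
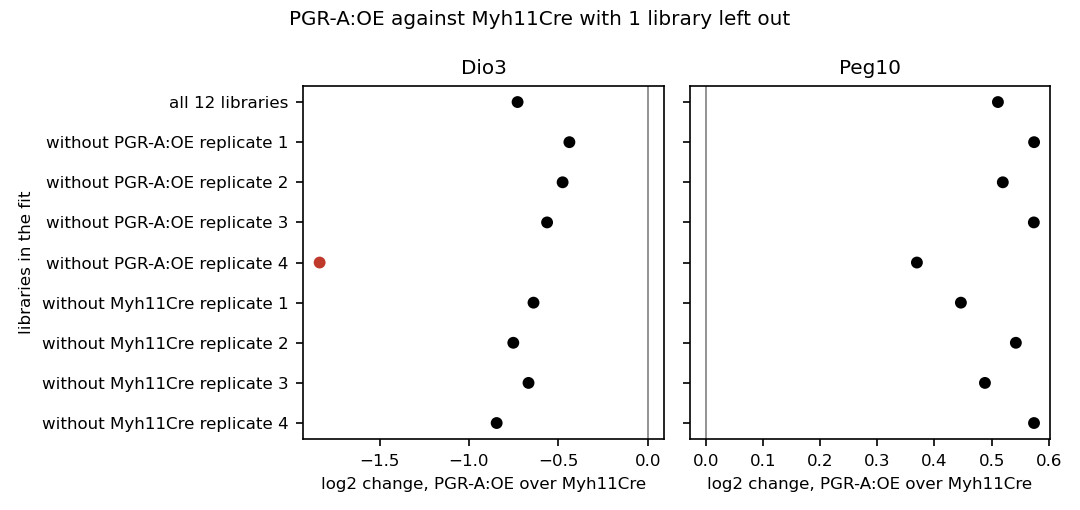
Log2 change of Dio3 (left) and Peg10 (right), PGR-A:OE over Myh11Cre, with all 12 libraries and with 1 library of the comparison left out; red marks an edgeR adjusted p under 0.05, and the x axes differ. For Dio3 the value was -1.84 without PGR-A:OE replicate 4, and for Peg10 all values lay between 0.37 and 0.57.

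The comparison of PGR-B:OE with Myh11Cre libraries asks the same for isoform B. None of the 11 tested genes passed edgeR's test, against 0.308% of all tested genes. Prl2a1 was the 1 gene of the 11 with an unadjusted p under 0.05, against 1444 of all 15561 genes. DESeq2 and limma voom also called 0, with 0 at an unadjusted p under 0.05 in each, against 1528 and 1403 of all genes. DESeq2 again left 4 of the 11 without an adjusted p. None of the 11 had groups that did not overlap, against 5.67% of all genes tested. Prl2a1 averaged 5.19 ± 9.75 CPM in PGR-B:OE and 0.116 ± 0.061 CPM in Myh11Cre libraries (SD, n = 4 each), a log2 change of 5.42 (SE 1.61, edgeR adjusted p = 0.294), and without PGR-B:OE replicate 3 the log2 change was 1.41. Prl8a2 averaged 833 ± 120 CPM in PGR-B:OE and 1527 ± 2355 CPM in Myh11Cre libraries, a log2 change of -0.87 (SE 1.20, edgeR adjusted p = 0.877), which became 1.25 without Myh11Cre replicate 4. Dio3 had a log2 change of -0.77 (SE 0.54, edgeR adjusted p = 0.719). The median log2 change was -0.019 over the 11 genes and -0.0052 over all genes tested. Both comparisons share the 4 Myh11Cre libraries.

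Between PGR-B:OE and PGR-A:OE libraries, edgeR's test called none of the 11 genes, against 0.116% of all genes tested. Prl2a1 was the 1 gene of the 11 with an unadjusted p under 0.05, against 1251 of all 15561 genes. DESeq2 and limma voom called 0, with 0 and 1 at an unadjusted p under 0.05, against 1343 and 1206 of all genes. Here too DESeq2 left 4 of the 11 without an adjusted p. Groups that did not overlap were found for 0 of the 11, against 3.85% of all genes. Prl2a1 averaged 5.19 ± 9.75 CPM in PGR-B:OE and 0.207 ± 0.207 CPM in PGR-A:OE libraries, a log2 change of 4.60 (SE 1.495, edgeR adjusted p = 0.451), and without PGR-B:OE replicate 3 it was 0.59. Peg10 averaged 12.6 ± 2.54 CPM in PGR-B:OE and 15.9 ± 3.09 CPM in PGR-A:OE libraries, a log2 change of -0.34 (SE 0.16, edgeR adjusted p = 0.635). The median log2 change was -0.018 over the 11 genes and 0.0045 over all genes.

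**Figure D5:**
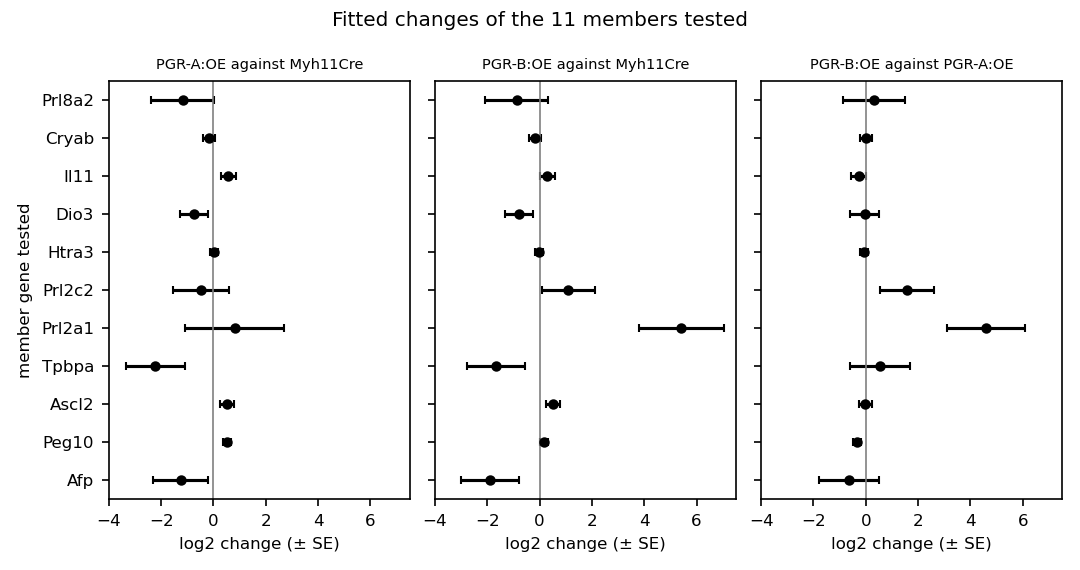
Log2 change with its standard error for the 11 genes tested, ordered as decidual, trophoblast and yolk sac genes, in PGR-A:OE against Myh11Cre (left), PGR-B:OE against Myh11Cre (middle) and PGR-B:OE over PGR-A:OE (right). Errors are over 1 log2 unit for Prl8a2, Prl2c2, Prl2a1, Tpbpa and Afp and between 0.15 and 0.54 for the other 6 genes.

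Summed by class, each set of genes spread most in the group that held its highest library. The decidual genes summed to 1109 ± 677 CPM in PGR-A:OE, 1254 ± 152 CPM in PGR-B:OE and 1969 ± 2442 CPM in Myh11Cre libraries (SD, n = 4 each), and to 749.5 CPM in Myh11Cre libraries without replicate 4. The trophoblast genes summed to 18.6 ± 3.00 CPM in PGR-A:OE, 25.4 ± 18.7 CPM in PGR-B:OE and 16.4 ± 8.26 CPM in Myh11Cre libraries, with 16.1 CPM in PGR-B:OE libraries without replicate 3 and 12.3 CPM in Myh11Cre libraries without replicate 4. The yolk sac and fetal blood genes summed to 1.09 ± 0.940 CPM in PGR-A:OE, 0.408 ± 0.171 CPM in PGR-B:OE and 1.70 ± 2.85 CPM in Myh11Cre libraries, with 0.643 CPM in PGR-A:OE libraries without replicate 4 and 0.277 CPM in Myh11Cre libraries without replicate 2.

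Other genes of the same tissues were listed for comparison. Of 13 other prolactin family genes, 9 had a count, 2 were tested and none was called in any of the 3 comparisons. Prl8a9 had 317, 685, 100 and 1 counts in PGR-A:OE replicates 1 to 4, 233, 179, 476 and 509 in PGR-B:OE replicates 1 to 4, and 27, 307, 116 and 2334 in Myh11Cre replicates 1 to 4. Prl2c5 had 234, 226, 35 and 1 counts in PGR-A:OE replicates 1 to 4, 88, 40, 286 and 225 in PGR-B:OE replicates 1 to 4, and 4, 29, 76 and 1237 in Myh11Cre replicates 1 to 4. Both had their highest and lowest libraries where Prl8a2 had them. The 18 other decidual genes summed to 882 to 940 CPM in PGR-A:OE, 985 to 1030 CPM in PGR-B:OE and 934 to 1067 CPM in Myh11Cre libraries. The 1006-fold range of Prl8a2 was not seen in that sum. Aldh1a2, Gja1, Hoxa10 and Prl6a1 led it, at means of 435, 136, 124 and 77.8 CPM. Whether their RNA came from decidua or from other uterine cells was not tested, so the sum does not measure decidual content. Of the 18 genes, 15 were tested and none was called. Prl6a1, prolactin-like protein B, had 29.9 CPM in PGR-A:OE replicate 4, its lowest library, and 48.3 CPM in Myh11Cre replicate 4, the next lowest.

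Of 34 other trophoblast genes, 22 had a count, 11 were tested and none was called. The most abundant were the keratins Krt8, Krt18 and Krt19 and the imprinted H19, and the keratins are also made by uterine epithelium. Outside the rule for naming genes, and chosen after the values were seen, Psg29 and Psg22 had 149 and 63 counts in PGR-B:OE replicate 3 and 0 to 4 and 0 to 5 elsewhere. Markers of uterine natural killer cells, which gather in the decidua, were all 14 detected, 11 were tested and none was called, and their sum was highest in PGR-B:OE replicate 1, at 107.0 CPM, against 21.8 to 43.0 CPM in the other 11 libraries. That library was not the highest for any of the decidual genes of the list. It ranked 2 for Prl3c1, at 30 counts against 59 in Myh11Cre replicate 4. Among the 18 other decidual genes, it was the highest for Hand2, Hoxa10, Hoxa11, Bmp2 and Wnt6. Their levels there were 78.2, 202, 104, 8.61 and 2.74 CPM, and the rest of those genes peaked elsewhere. All but Hoxa10 lie outside the rule for naming genes, and they were chosen after the values were seen.

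Of 22 other yolk sac genes, 13 were tested and 1 was called. Serpina1a, an alpha-1-antitrypsin gene of a cluster of close paralogs among which reads may be split, had 46, 60, 60 and 79 counts in PGR-A:OE replicates 1 to 4, 4, 6, 2 and 0 in PGR-B:OE replicates 1 to 4, and 1, 2, 2 and 1 in Myh11Cre replicates 1 to 4. It rose in PGR-A:OE against Myh11Cre libraries by a log2 change of 5.19 (SE 0.52, edgeR adjusted p = 0.000977), and in PGR-B:OE over PGR-A:OE libraries its log2 change was -4.25 (SE 0.47, edgeR adjusted p = 0.00204). The most abundant of the 22, Trf, Sox17, Amn and Fga, were not called.

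Of 12 adult red cell genes in the table, 6 had a count, 4 were tested and none was called, and they summed to 36.5 CPM in PGR-A:OE replicate 4 and to 10.8 to 19.6 CPM in the others. None of the 10 endothelial, 11 epithelial and 9 stromal markers that were tested was called in any of the 3 comparisons. The stromal markers summed to 39648 to 50612 CPM in PGR-A:OE, 40792 to 50979 CPM in PGR-B:OE and 34541 to 36365 CPM in Myh11Cre libraries. In Myh11Cre replicate 4, where Prl8a2 and Tpbpa were highest, the smooth muscle sum was 20133 CPM, and in PGR-B:OE replicate 3, where Prl2a1 was highest, it was 17927 CPM, each within the range of the other libraries of its group. Their part in the values of the listed genes was not tested.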

How the data were processed

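Uterine RNA of 12 libraries in 3 groups was analysed from 1 table of raw counts per gene that the authors deposited. The submitters' processing notes name featureCounts, Subread 1.6.4, STAR 2.7.0f, Bowtie2 2.2.5 and DESeq2, with the builds GRCm38 and mm10. What each did, the annotation, and how strand and reads of several genes were handled is not given in the sources, so reads of overlapping genes and near-identical paralogs are uncertain. Every column matched a sample.

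Genes were filtered with edgeR 4.0.16 (R 4.3.3, filterByExpr), scaled by TMM and fitted together over 12 libraries with robust quasi-likelihood tests, with Benjamini-Hochberg adjustment over 15561 genes. The fit was tested on simulated data. Alternatives were DESeq2 1.42.0, limma 3.58.1 voom, other scalings, no filter, 8 libraries, a replicate block and libraries left out. Leaving out PGR-A:OE replicate 4, PGR-B:OE replicate 3 and Myh11Cre replicate 4 together was chosen after the member values were seen. Positions and 75-base windows shared between gene models came from GENCODE of GRCm38. Values by library are given for genes with a mean of at least 1 CPM or at least 5 CPM in a library. Others are given by counts and ranges. Genes of the other lists were named from the 4 of highest mean CPM in a list, and for some lists none was. Called genes and genes marked as outside this rule were named besides. The genes, lists and tests were chosen with earlier results of these data known.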

Additional observations from a re-analysis of the deposited data

Results flagged for a closer look

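In groups of 4 libraries, a library was listed where its distance to the nearest of the others, divided by the range of the group, was above Dixon's critical value for that number. This was examined in 36 groups of values (9 genes and 3 class sums in 3 groups), and 11 were listed. Chance lists about 1 in 20 groups of normally distributed values chosen without regard to a high library. The rule was applied to CPM without a log scale, which need not be normal, and that rate cannot be set against the 11. Prl7a1 and Afp were among the 9 genes only because 1 library passed 5 CPM, and Prl2a1 and Tpbpa reached a mean of 1 CPM only with their highest library, so these genes were chosen in part for the library that was then listed. The class sums hold the same genes, and the values share libraries. What follows is a description.

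Myh11Cre replicate 4 was listed for Prl8a2, at 5054 CPM against 174 to 450 CPM in the other Myh11Cre libraries, for Tpbpa, at 12.3 CPM against 0.161 to 0.636 CPM, for the summed decidual genes, at 5626 CPM against 568 to 861 CPM, and for the summed trophoblast genes, at 28.7 CPM against 10.8 to 13.6 CPM. PGR-B:OE replicate 3 was listed for Prl2a1, at 19.8 CPM against 0.118 to 0.704 CPM in the other PGR-B:OE libraries, for Prl7a1, which entered through this library, at 8.51 CPM against 0 to 0.337 CPM, and for the summed trophoblast genes, at 53.4 CPM against 14.9 to 18.1 CPM. Myh11Cre replicate 2 was listed for Afp, at 5.21 CPM against 0.0947 to 0.208 CPM in the other Myh11Cre libraries, and for the summed yolk sac and fetal blood genes, at 5.98 CPM against 0.189 to 0.417 CPM. PGR-A:OE replicate 4 was listed for Dio3, at 24.8 CPM against 3.17 to 6.04 CPM in the other PGR-A:OE libraries, and for Afp, at 1.53 CPM against 0.193 to 0.331 CPM.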

How the results depend on the processing

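Of 558 refitted changes of the 11 tested genes, 490 kept direction and side of the threshold, 65 changed sign, none of them called, and 3 became calls, all of Dio3 in PGR-A:OE against Myh11Cre without PGR-A:OE replicate 4. The 4 genes that DESeq2 left without an adjusted p in each comparison were counted as not called. The calls over all genes, 102, 48 and 18 in PGR-A:OE against Myh11Cre, PGR-B:OE against Myh11Cre and PGR-B:OE over PGR-A:OE, became 564, 221 and 126 with DESeq2. They ranged over 32 to 99, 22 to 48 and 11 to 31 with 1 library left out. With PGR-A:OE replicate 4 and Myh11Cre replicate 4 left out they were 91 and 38 in the comparisons with PGR-B:OE. With PGR-B:OE replicate 3 left out too, they were 211, 202 and 43. With only the 8 libraries compared they were 63 in PGR-A:OE against Myh11Cre and 10 in PGR-B:OE over PGR-A:OE. Called decidual genes of the list numbered 0 to 1 with 1 library left out, and 1 in PGR-A:OE against Myh11Cre with those 2 or 3 libraries left out.

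No pairing of samples by replicate number was seen in the counts: 1 of 12 correlations of same-numbered libraries was over 0.1, and 2 of 12 libraries correlated best with their own number. Same-numbered libraries correlated at -0.257 to 0.190 and others at -0.359 to 0.351, which cannot exclude a weak pairing. With replicate number as a block the calls were 69, 32 and 11, and the log2 change was 0.27 for Prl2c2 in PGR-A:OE against Myh11Cre and 0.24 for Dio3 in PGR-B:OE over PGR-A:OE, both of opposite sign.

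Further sign changes were the following, as log2 changes, whose cause was not tested beyond the libraries removed. With PGR-A:OE replicate 4 and Myh11Cre replicate 4 left out, and then with PGR-B:OE replicate 3 left out too, PGR-A:OE against Myh11Cre gave 1.36 and 1.36 for Prl8a2, 0.17 and 0.18 for Cryab, 1.07 and 1.07 for Prl2c2, and 1.24 and 1.25 for Tpbpa. PGR-B:OE against Myh11Cre gave 1.25 and 1.30 for Prl8a2, 0.14 and 0.039 for Htra3, 1.503 and 1.73 for Tpbpa, and 0.019 for Cryab with 2 libraries left out. PGR-B:OE over PGR-A:OE gave -0.11 and -0.064 for Prl8a2, 1.07 and 1.06 for Dio3, and 0.42 and 0.59 for Afp. Limma voom gave -0.028 for Prl2a1 and 0.14 for Afp in PGR-A:OE against Myh11Cre, 0.38 for Prl8a2 and 0.19 for Tpbpa in PGR-B:OE against Myh11Cre, and 0.40 for Dio3 in PGR-B:OE over PGR-A:OE. Cryab in PGR-B:OE over PGR-A:OE, -0.00044 with 12 libraries, was 0.0053 with DESeq2 size factors, 0.0033 without a filter, 0.0054 with DESeq2, 0.0027 with limma voom and 0.0046 with 8 libraries.

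With 1 library left out, log2 changes in PGR-A:OE against Myh11Cre ranged over -1.68 to 0.95 for Prl8a2, -0.29 to 0.015 for Cryab, -0.037 to 0.18 for Htra3, -0.999 to 0.70 for Prl2c2, -3.00 to 0.95 for Tpbpa and -2.32 to 1.82 for Afp. In PGR-B:OE against Myh11Cre they ranged over -1.25 to 1.25 for Prl8a2, -0.37 to 0.015 for Cryab, -0.11 to 0.13 for Htra3, -2.06 to 1.501 for Tpbpa and -2.29 to 1.17 for Afp. In PGR-B:OE over PGR-A:OE they ranged over -0.11 to 0.81 for Prl8a2, -0.21 to 0.13 for Cryab, -0.34 to 1.06 for Dio3, -0.15 to 0.047 for Htra3, -0.17 to 0.17 for Ascl2 and -0.93 to 0.42 for Afp. With no filter, 31 listed genes were fitted and none was called. At an unadjusted edgeR p under 0.05 were 1, 7 and 8 of them in the 3 comparisons, against 2548, 1586 and 1470 of all 20571 genes. Hand1, Prl3b1, Prl7a1, Prl2a1 and Rhox6 were among both the 7 and the 8, and each had most of its counts in PGR-B:OE replicate 3. Ttr was also among both, and not through that library. It had 0 to 2 counts in PGR-B:OE, 5 to 23 in PGR-A:OE and 0 to 17 in Myh11Cre libraries. Counts of a few reads limit what can be said of the 20 genes with a count that were not tested.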
